A study of Homo sapiens with 4 samples.

Results

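The names under which the most GATA3 regions were listed in BMP4-treated human embryonic stem cells (hESCs) are described here. A shared region was a position of the replicate 1 peak list that lay within 100 bp of a position of replicate 2, and it was counted under the gene name given to it in the replicate 1 list. Names with 6 or more shared regions were kept, so the 20 names were chosen by the measured number of regions and that number is a description, given with no test. They were 20 of 7206 names with a shared region (0.278%), and they held 268 of 9189 pairs of a shared position and a name (2.92%). Of the other names, 5818 had 1 shared region (80.7% of the 7206).

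Few of these names stood for a gene in the usual sense. Of the 20, 13 were found in GENCODE release 44 (1 of them by an older symbol), and 0 of these were protein-coding. They were names of small RNA families, ribosomal RNA, pseudogenes, antisense transcripts and clones. The protein-coding name with the most shared regions was UGT8, a galactosyltransferase of myelin lipid synthesis, with 5, and 12 further protein-coding names had 4.

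The study followed H1, an established hESC line, in mTeSR1 medium after addition of BMP4 at 50 ng/ml for 6 h. GATA3-bound chromatin was recovered with an antibody (ab199428) and sequenced in 2 ChIP replicates, and the 2 input samples of sheared chromatin were treated in the same way. All 4 samples carried the same cell line and treatment, and GATA3 ChIP of untreated cells was not analysed here. Each deposited list gave 1 position and 1 name a line with no height or width, 18538 distinct positions in replicate 1 and 12865 in replicate 2. The strength of a region and the read depth are therefore unknown. The study's methods describe the ChIP replicates as biological.

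GATA3 is a zinc-finger transcription factor that binds DNA at the core letters GATA, and it is known for its part in trophoblast, T cell and breast epithelial fate. BMP4 is a secreted ligand of the TGF-beta family whose receptors phosphorylate SMAD proteins, and it drives hESCs out of pluripotency. Peak lists are usually turned into gene lists by giving each peak the nearest annotated gene. A name in such a list can therefore stand for 1 gene, or for many copies of an RNA family that share the name over the genome.

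The 20 names fell into 4 kinds, set after the positions were seen. Positions of 1 name within 1 Mb of each other on a chromosome were taken as 1 locus. There were 11 names with all regions at 1 locus (67 regions), 5 dispersed RNA families (124 regions at 99 loci), the spliceosomal RNAs U1 and U2 (30 regions), and 2 names of ribosomal DNA (47 regions).

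The GATA sites nearest to representative regions are shown first, since they show what the regions of each kind held. A GATA site was a match to WGATAR on either strand, which is AGATAA or AGATAG or TGATAA or TGATAG. For each name, the region with the smallest distance between the replicates among those with a site was used, and 12 bases on each side of the site nearest to it are printed in the strand on which it reads WGATAR. The site is in capitals and coordinates are hg38.
Y_RNA (chr12:88451358-88451387, minus strand): agagagatattgAGATAAgactggaagaaa
U3 (chr3:90033343-90033372, plus strand): tagaccaattggAGATAAgatctggtgctt
Metazoa_SRP (chr4:139145342-139145371, plus strand): agacttgaggacAGATAAcatcactggatc
SNORA31 (chr9:101327803-101327832, minus strand): agataaggactgAGATAAgccctggtctcc
U2 (chr3:150262071-150262100, minus strand): agcctgcattgtTGATAAggacagatacat
U1 (chr1:146370204-146370233, plus strand): ttgtcaatcactAGATAAatggggaagatt
RN7SKP53 (chr11:99186984-99187013, minus strand): ttagatcaggcaAGATAGctctcattgtcc
RNA5-8S5 (chr21:8467433-8467462, minus strand): agatggccaaaaAGATAGtgccagctactg

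The RNA5-8S5 site was 1 of only 3 sites under that name, and the 30 bases around the site of pRNA on a scaffold were identical to it, so these 2 names held copies of the same stretch. At the U2 region on chromosome 3 the replicate positions lay 12 bp apart, and the site shown lay 48 bp from the replicate 1 position. For 10 further names the site was added after the values were seen, and 4 of these are shown because their regions are described in detail below. The HYMAI site shown lay 96 bp from the replicate 1 position, near the edge of the 200 bp searched.
HYMAI (chr6:143969322-143969351, plus strand): cctgtaaaatggAGATAAcgattacaccca
AP001439.2 (chr21:26124731-26124760, minus strand): acggcatgtgttTGATAAccatcagcattt
ATP5A1P4 (chr14:62663250-62663279, minus strand): agtgcaattaacTGATAAggtactgcggca
EGLN3-AS1 (chr14:33570077-33570106, minus strand): attttgtagattAGATAAcaatctctgtat

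The number of positions under each name differed between the replicates, as it did over the whole lists. Under the 20 names together, 507 positions were listed in replicate 1 and 408 in replicate 2. Of these, 52.9% in replicate 1 and 65.4% in replicate 2 were shared, beside 49.6% and 71.4% over all positions. The names were kept for their number of shared regions, so the shared part depends on the choice. Of the 268 regions, 267 had the same name in both lists, and the exception was a Metazoa_SRP region on chromosome 14 that was listed under NEMF in replicate 2.

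The shared part is given for each kind, with no test, since names with few shared positions could not enter. The names at 1 locus had 93 positions in replicate 1 and 76 in replicate 2, of which 72.0% and 88.2% were shared. The dispersed RNA families had 273 and 182 positions, of which 45.4% and 67.6% were shared. U1 and U2 had 64 and 48 positions, of which 46.9% and 62.5% were shared. The ribosomal DNA names had 77 positions in replicate 1 and 102 in replicate 2, of which 61.0% and 46.1% were shared. The ribosomal DNA was the only kind with more positions in replicate 2, although the whole list of replicate 2 was shorter.

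**Figure D1:**
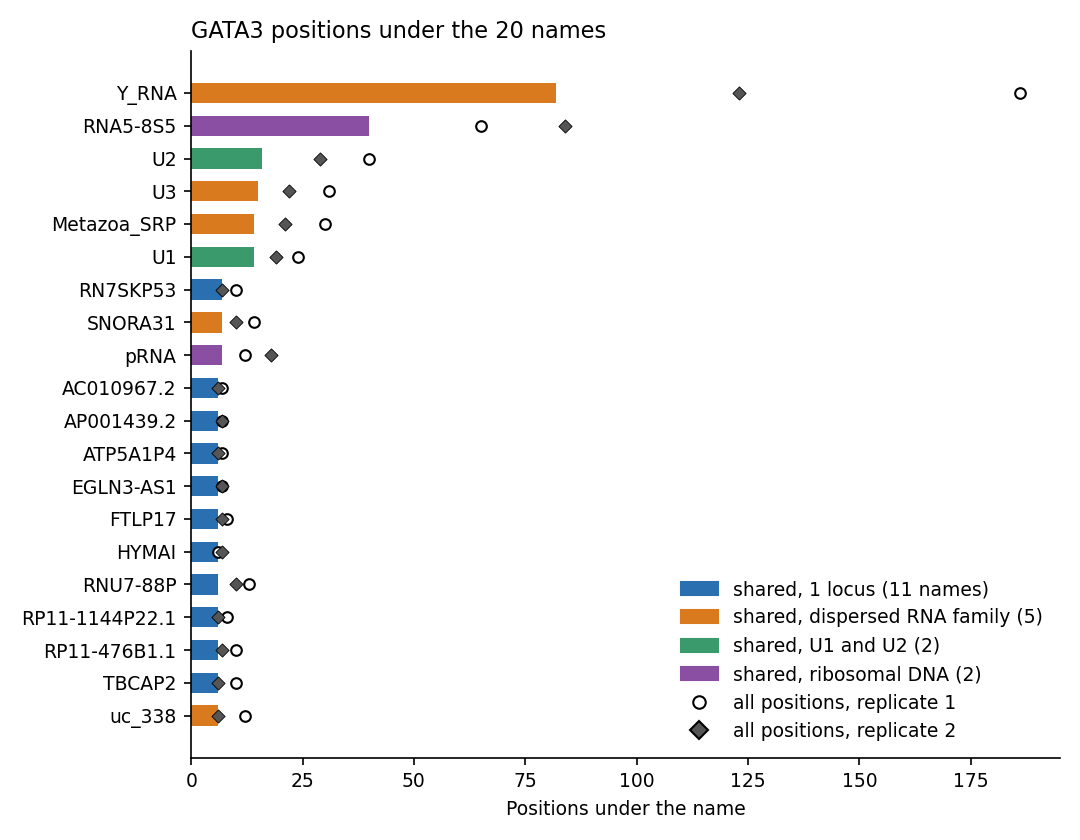
Number of GATA3 positions (x axis) under each of the 20 names (y axis). Bars give shared regions in the colour of the kind of name, circles all positions of replicate 1 and diamonds all positions of replicate 2. Y_RNA leads with 82 shared regions of 186 and 123 positions, and the diamond lies right of the circle for RNA5-8S5, pRNA and HYMAI (6 and 7 positions).

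Y_RNA, a family of small RNAs bound by the Ro60 protein that has many copies in the genome, had the most shared regions, 82. Replicate 1 listed 186 positions under this name, of which 104 had no partner. Replicate 2 listed 123, of which 41 had none. The 82 regions fell at 66 loci on 21 sequences. There was 1 region at 54 of these loci, 2 regions at 8 loci and 3 at the other 4, so the count under the name was made of many places and no place held 6. GENCODE lists 756 copies of Y_RNA, which is 0.107 shared regions a copy, beside 0.146 shared positions for each of the 62663 GENCODE genes on chromosomes.

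The regions under Y_RNA were mostly kilobases away from a Y_RNA copy. The median distance to the nearest copy was 17.4 kb, with a minimum of 0.139 kb. At 75 of the 81 regions on chromosomes, a Y_RNA copy was still the nearest GENCODE gene of any kind. A gene of the deposited name was the nearest at 13 of 15 regions for U3 and 11 of 14 for Metazoa_SRP. For U2 it was at 11 of 12 regions on chromosomes, and for U1 at 1 of 12. Of the 82 Y_RNA regions, 49 were in introns of protein-coding genes, 29 intergenic, 3 exonic, and 1 was on a scaffold. Intergenic here means outside protein-coding genes, whether or not a noncoding gene covers the position. Over all shared regions on chromosomes, 41.3% were in introns, 51.3% intergenic and 2.70% exonic. The loci with 3 regions were in introns of RYR3, a calcium release channel, in and beside NOL4, in introns of ADGRL3, an adhesion receptor, and around PMS2 and CYTH3. At the RYR3 locus the regions lay at 33593144, 33599574 and 33724811 on chromosome 15, each with 2 GATA sites. At the ADGRL3 locus they lay at 61911456, 61932347 and 62002357 on chromosome 4, between 711 and 802 kb from the start site of that gene. Of the 82 regions, 72 held a GATA site (87.8%).

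The other dispersed families were smaller. U3, a small nucleolar RNA of ribosomal RNA processing, had 15 shared regions at 11 loci, from 31 positions in replicate 1 and 22 in replicate 2. Of these, 11 held a GATA site, and the median distance to the nearest of 50 GENCODE copies was 42.8 kb. Metazoa_SRP, the RNA of the signal recognition particle that guides secreted proteins, had 14 regions at 11 loci from 30 and 21 positions. Only 7 of its regions held a GATA site, and 3 of these 7 lay together at 139142239, 139145341 and 139153581 on chromosome 4 in introns of ELF2, an ETS family transcription factor.

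SNORA31, a guide RNA for pseudouridine, had 7 regions at 5 loci from 14 and 10 positions, and all 7 held a GATA site. None of them was on chromosome 13, where GENCODE places its only SNORA31 gene, so no gene of that name lies near these regions in GENCODE. The name uc_338, an ultraconserved element, had 6 regions at 6 loci from 12 and 6 positions, and 5 held a site. Over these 5 names, a GATA site was found at 82.3% of 124 regions (95% Wilson interval 74.6 to 88.0%), beside 81.5% of all shared regions.

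U2, an RNA that pairs with the branch point of introns, had 16 shared regions from 40 positions in replicate 1 and 29 in replicate 2. Of these, 8 lay within 44 kb on chromosome 17, from 43239997 to 43284005, inside introns of CCDC200, and GENCODE places 12 copies of U2 on this chromosome. The central 75 bases of a region, as long as the reads, occurred 10 to 14 times in hg38 at each of the 8. At the other 8 U2 regions they occurred more than once in 2. The central 75 bases at the first region of the array are shown because they occurred 13 times. They held no GATA site, but the 200 bp around the position held 1, so this region was counted with a site.
U2 (chr17:43239960-43240034, plus strand): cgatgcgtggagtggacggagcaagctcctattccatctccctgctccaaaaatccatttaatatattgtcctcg

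U1, an RNA that recognises the donor end of introns, had 14 shared regions from 24 and 19 positions, of which 12 were on chromosome 1 and 2 on a scaffold. On chromosome 1, the first lay at 120355101, nearest to NBPF8, and the other 11 between there and 149637002.5, nearest to copies of PPIAL4, a family of cyclophilin A-like genes. For U1 and U2 together, 20 of 30 regions held a GATA site (66.7%, 48.8 to 80.8%), and 17 of 30 had repeated central bases (56.7%, 39.2 to 72.6%).

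The name RNA5-8S5, a ribosomal RNA, had 40 shared regions from 65 positions in replicate 1 and 84 in replicate 2. They formed runs of 20 regions over 254.9 kb on chromosome 21, 11 over 50.7 kb on a scaffold and 9 over 44.5 kb on another. A further name of the same sequences, pRNA, which stands for RNA from the ribosomal DNA promoter, had 7 regions on the same scaffolds, from 12 and 18 positions. At 46 of these 47 regions the central 75 bases occurred more than once in hg38 (97.9%, 88.9 to 99.6%), beside 4.69% of all shared regions. A GATA site was found at 3 of 40 RNA5-8S5 regions and 4 of 7 pRNA regions, together 14.9% (7.41 to 27.7%), beside 81.5% of all. Copies of the same sequence are counted here as separate regions, so these intervals are too narrow. The central bases of an RNA5-8S5 region are shown because they held no GATA site and occurred 8 times in hg38.
RNA5-8S5 (chr21:8442825-8442899, plus strand): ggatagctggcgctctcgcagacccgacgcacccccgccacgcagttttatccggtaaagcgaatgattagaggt

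Regions in repeated sequence were thus in both lists although the authors removed reads that mapped to several places. The signal tracks and the input reads were not analysed here, and the part of repeated sequence in these counts was not tested.

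The 11 names at 1 locus each had 6 shared regions, except RN7SKP53 with 7. In 11 of 11 the run held no shared region of another name between its first and last region. Naming each position by its nearest gene would give such unbroken runs, and how the names were given is not known. The runs spanned 32.8 to 610 kb, with a median of 205 kb. Of the 67 regions, 37 were in introns of protein-coding genes (55.2%) and 30 were intergenic (44.8%). Over all shared regions on chromosomes these shares were 41.3% and 51.3%. At promoters (within 1 kb of a protein-coding start site) there were 0 and in exons 0, beside 4.74% and 2.70% over all. A GATA site was found at 60 of 67 (89.6%, 79.97 to 94.8%), and 28 of the 67 held 2 or more sites. The 67 regions lay 46.4 to 907 kb from the nearest protein-coding start site, with 1 region within 50 kb. Each gene was given 1 start site, the upstream end of its GENCODE entry. Distances to further start sites inside a gene were not measured. The central bases were repeated at 4 of 67 (5.97%).

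**Figure D2:**
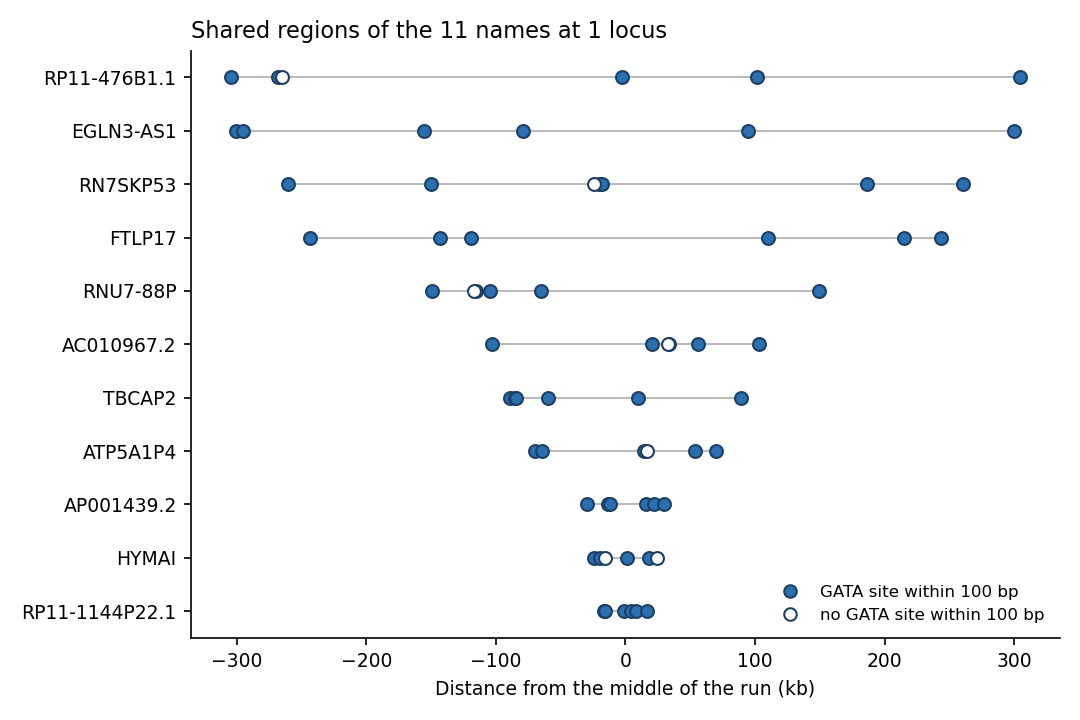
Shared regions of the 11 names at 1 locus, as the distance in kb from the middle of each run (x axis), 1 row a name (y axis), sorted by span. Filled points had a GATA site within 100 bp (60 of 67) and open points had none. Runs range from 32.8 kb for RP11-1144P22.1 to 610 kb for RP11-476B1.1.

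In 5 of the 11 names every region was in an intron. RN7SKP53 is a pseudogene of the RNA that holds back the elongation factor P-TEFb. Its 7 regions ran over 522 kb on chromosome 11, from 99187023 to 99708877, all in introns of CNTN5, a neural contactin whose gene spans 1338 kb. Replicate 1 listed 10 positions under this name and replicate 2 listed 7, and 6 of the 7 shared regions held a GATA site. The pseudogene itself is 315 bp long, and the nearest of the regions lay 66.8 kb from it.

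TBCAP2, a pseudogene of a tubulin-folding cofactor, had 6 regions over 179 kb on chromosome 1, from 14598022 to 14776702. All lay in introns of KAZN, a gene of 1225 kb for a cell junction protein, 376 to 555 kb from the nearest protein-coding start site, that of TMEM51. Each of the 6 held 1 GATA site. The 2 lists had 10 and 6 positions under this name, so all 6 of replicate 2 were shared.

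EGLN3-AS1, antisense to the oxygen sensor EGLN3, had 6 regions over 601 kb on chromosome 14, from 33565385 to 34166012. Of these, 4 were in introns of NPAS3, a neural transcription factor, and 2 in introns of EGLN3. The region at 34166012 held 4 GATA sites, and all 6 held at least 1. Each list had 7 positions under this name.

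AP001439.2 had 6 regions over 60.0 kb on chromosome 21, from 26064775 to 26124740, all in introns of APP, which encodes the amyloid precursor protein and spans 291 kb. They were the closest to a protein-coding start site among the 11 names, 46.4 to 106 kb from that of APP, and each list had 7 positions under the name. All 6 held a GATA site, and the region at 26110896 held 4. Its 200 bases are shown because 2 of the sites in it are adjacent, with sites in capitals on either strand (on the opposite strand they read TTATCT or TTATCA or CTATCT or CTATCA).
AP001439.2 (chr21:26110796-26110995, plus strand): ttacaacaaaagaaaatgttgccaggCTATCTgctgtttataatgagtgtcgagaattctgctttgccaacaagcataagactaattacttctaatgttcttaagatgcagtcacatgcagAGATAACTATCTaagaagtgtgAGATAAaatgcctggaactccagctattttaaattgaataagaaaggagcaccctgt

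HYMAI is an imprinted noncoding RNA that overlaps PLAGL1, a zinc-finger gene that restrains growth. It had 6 regions over 48.9 kb on chromosome 6, from 143964773 to 144013673, all in introns of PLAGL1 and 50.9 to 99.8 kb from its start site. Replicate 1 listed 6 positions and replicate 2 listed 7 under this name. The region at 144007565 lay 0.697 kb from the start of HYMAI and held 1 GATA site. The regions held 3, 1, 0, 4, 1 and 0 sites in order of position, so 4 of 6 had one. The region with 4 sites is shown with its sites in capitals on either strand.
HYMAI (chr6:143990550-143990749, plus strand): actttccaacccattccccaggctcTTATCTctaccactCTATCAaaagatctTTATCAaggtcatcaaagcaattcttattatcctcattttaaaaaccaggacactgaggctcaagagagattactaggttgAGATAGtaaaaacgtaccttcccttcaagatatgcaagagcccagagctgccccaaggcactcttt

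ATP5A1P4 (ATP5F1AP4 in GENCODE), a pseudogene of an ATP synthase subunit, had 6 regions over 139 kb on chromosome 14, of which 4 were in introns of KCNH5, a voltage-gated potassium channel. They lay 305 to 444 kb from the start site of KCNH5, and 5 of 6 held a GATA site. RNU7-88P, a pseudogene of the U7 RNA of histone messenger processing, had 6 regions over 299 kb on chromosome 13, 1 of them in an intron of DIAPH3, a formin of actin assembly. It had 13 positions in replicate 1 and 10 in replicate 2, the most unshared positions among the names at 1 locus, and 5 of its 6 shared regions held a site.

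In 3 names every region was intergenic, that is, outside protein-coding genes. RP11-1144P22.1 had 6 regions over 32.8 kb on chromosome 8, from 71672591 to 71705380, which was the shortest run. They lay 80.6 to 113 kb upstream of EYA1, a phosphatase and transcriptional co-activator of ear and kidney development, and all 6 held a GATA site. Those at 71687940, 71693239, 71696942 and 71705380 lay inside a noncoding gene of GENCODE. The lists had 8 and 6 positions under this name. The replicate positions were a median of 61.5 bp apart at these regions, beside 23 bp at all shared regions, and at a limit of 50 bp the name no longer had 6.

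AC010967.2 had 6 regions over 205 kb on chromosome 2, from 52976459 to 53181907, 586 to 791 kb from the nearest protein-coding start site. FTLP17, a ferritin light chain pseudogene, had 6 regions over 487 kb on chromosome 1, from 104134988 to 104622103, and all 6 held a GATA site. Its region at 104134988 lay inside a noncoding gene of GENCODE. RP11-476B1.1 had 6 regions over 610 kb on the same chromosome, from 195702609 to 196312193, of which 1 was in an intron of KCNT2, a sodium-activated potassium channel. Its farthest region was 907 kb from a protein-coding start site, the farthest among the 11 names.

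The interval between protein-coding start sites around these runs, gene bodies included, was compared with the genome. It was 200 to 3423 kb long, with a median of 1528 kb, and exceeded 1 Mb for 8 of 11 names. The median of all 19972 such intervals was 50.0 kb, and that of the interval around a shared region was 390 kb. The first counts each interval once and the second once for each region in it, so long intervals weigh more in the second. Of all shared regions, 25.7% lay in intervals over 1 Mb, and the share of sequence in such intervals was not measured. Their median density was 2.54 shared regions per Mb, beside 3.11 per Mb over chromosome sequence without gaps. The longest interval around a run was that of RP11-476B1.1, between B3GALT2 and KCNT2, with 13 shared regions under 7 names. FTLP17 followed, with 3311 kb between AMY1C and PRMT6 and 9 regions.

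Not every long interval held many regions, and not every run lay in one. Of 480 intervals over 1 Mb, 168 held 6 or more shared regions, beside 220 of all 19972 intervals. The interval of HYMAI, between ZC2HC1B and PLAGL1, was 200 kb long and held 6 regions, which is 29.98 regions per Mb. That of RP11-1144P22.1, between EYA1 and MSC, was 252 kb long with 7 regions, or 27.7 per Mb. That of AP001439.2, between ATP5PF and APP, was 435 kb long with 6 regions, or 13.8 per Mb. Over the 11 names the density was 2.72 to 29.98 regions per Mb with a median of 5.90, beside 3.11 per Mb over chromosome sequence without gaps. The names were chosen by their number of regions, so a density above that of the genome follows in part from the choice and was not tested.

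The length of the named gene could not be compared over the 20 names, because only 65.0% of them were matched to the annotation and the check is void below 80%. The 7 names at 1 locus that were matched are short. RNU7-88P is 63 bp long, RN7SKP53 315 bp, TBCAP2 485 bp, FTLP17 525 bp, ATP5A1P4 1605 bp, HYMAI 3347 bp and EGLN3-AS1 19204 bp. The genes whose introns held the runs were longer, from 124 kb for PLAGL1 to 1338 kb for CNTN5 among the 5 names with every region in an intron.

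Sequence was not used by the rule, so GATA sites were compared between the 268 regions and the other shared regions. A GATA site was found at 189 of 268 regions under the 20 names (70.5%, 64.8 to 75.7%) and at 7297 of 8921 others (81.8%, 81.0 to 82.6%). The odds ratio was 0.53 (two-sided Fisher's exact test, p = 9.75e-06, adjusted p = 5.85e-05 over 6 motifs). The direction turned without the ribosomal DNA names, where the share was 82.4% and the odds ratio 1.04 (Fisher's exact test, p = 0.930), and among regions whose central 75 bases occur once it was 84.4% against 82.0% (odds ratio 1.19, exact test, p = 0.454). For the names at 1 locus alone, 89.6% against 81.8% gave an odds ratio of 1.91 (Fisher's exact test, p = 0.112). Regions of 1 name share a neighbourhood, and those of ribosomal DNA share a sequence, so they are not independent and the p-values are too small.

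**Figure D3:**
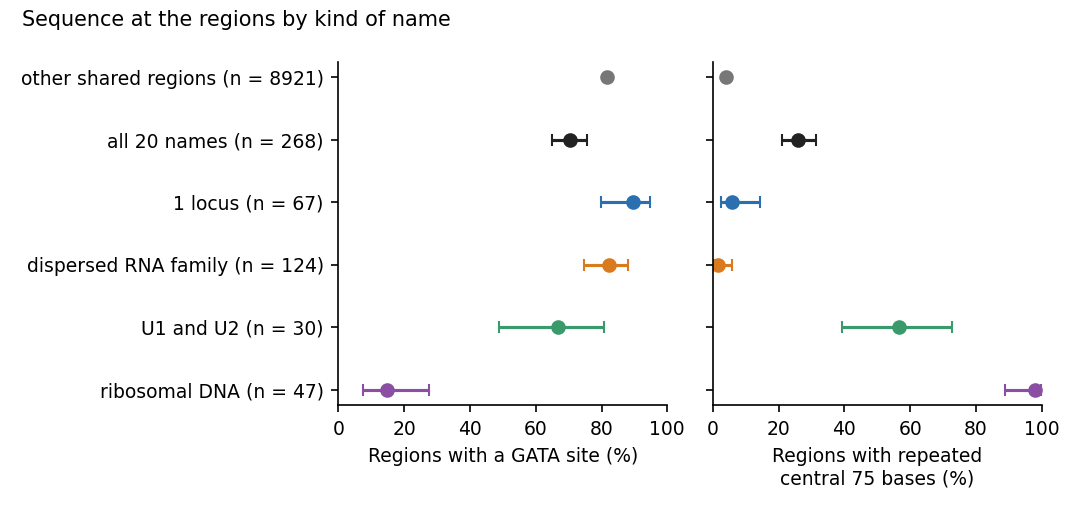
Percent of shared regions with a GATA site within 100 bp (left) and with central 75 bases that occur more than once in hg38 (right), for other shared regions, all 20 names and each kind. Points are shares and bars 95% Wilson intervals. Copies of a repeated sequence count as separate regions, so the bars of ribosomal DNA are too narrow. Ribosomal DNA is lowest on the left, at 14.9%, and highest on the right, at 97.9%.

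For the other 5 motifs, the tests did not pass after adjustment (two-sided Fisher's exact tests, Benjamini-Hochberg over 6). AGATAA, 1 of the 4 forms of the GATA site, was found at 45.1% of the 268 regions and 51.1% of the others (adjusted p = 0.110, exact test). TGANTCA, the site of AP-1 factors, was found at 4.85% and 8.81% (unadjusted p = 0.0205, adjusted p = 0.0616, exact test). ATGCAAAT, the octamer of POU factors, was at 6.34% and 5.01% (adjusted p = 0.384, exact test). ACAAAGG or ACAATGG, the site of SOX factors, was at 10.4% and 13.3% (adjusted p = 0.299, exact test), and GGAATG, the site of TEAD factors, at 18.7% and 19.03% (adjusted p = 0.937, exact test). AGATAA is also a form of WGATAR, so these are not separate tests.

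With 5 shared regions there were 9 names, ACTG1P18, EIF4A1P10, MIR1305, PTMAP5, RNA5SP318, RP11-379F12.4, RP11-6C14.1, SNORA40 and UGT8. UGT8 was the only protein-coding name among them. For RP11-379F12.4, whose 5 regions spanned 21.7 kb, the nearest protein-coding start site was that of GATA3 itself. Just inside the limit were the 11 names with 6.

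To see which protein-coding genes the regions lay near, each shared region on a chromosome was also given to the protein-coding gene with the nearest start site in GENCODE. By this measure 158 of 20007 genes (0.790%) had 6 or more shared regions, together 1254. None of the 20 names could be among them, since none is a protein-coding gene of GENCODE. Few of these regions carried the symbol of that gene in the deposited list. Of the 158 genes, 80 had 0 shared regions under their own symbol, and the median gene had regions under 4 different names. Of the 158, 22 held regions of the 20 names.

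**Figure D4:**
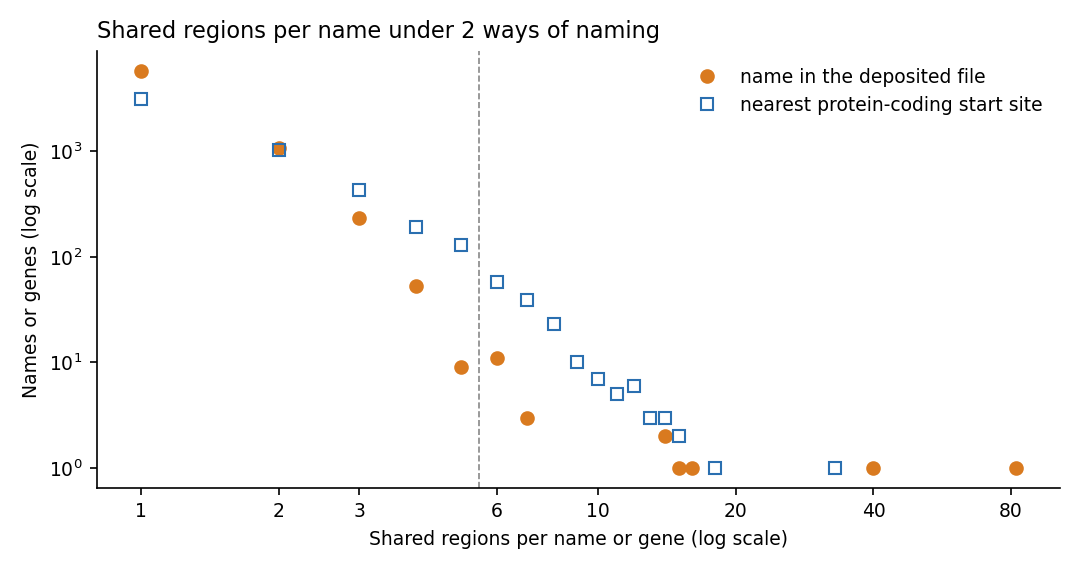
Number of names or genes (y axis, log scale) with each number of shared regions (x axis, log scale). Filled circles count by the deposited name and open squares by the nearest protein-coding start site, and the dashed line marks the limit of 6, which 20 names and 158 genes reached.

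TPTE, a testis phosphatase, had the most by this measure with 33, of which 20 were the RNA5-8S5 regions of chromosome 21. ZNF608, a zinc-finger gene, followed with 18 regions under 10 different names, of which 2 were its own. SPRY2, an inhibitor of receptor tyrosine kinase signalling, had 15 regions under 7 names, and NCAM2, a neural adhesion molecule, had 15 under 11 names. EYA1 had 11, of which 6 were those under RP11-1144P22.1. DIAPH3 had 10, of which 6 were under RNU7-88P. PLAGL1 had 6, all under HYMAI, and APP had 8, 6 of them under AP001439.2.

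The genes were read against lists of functions that were set with earlier results of these data known, beside 0.790% of all protein-coding genes with 6 or more. Of 61 BMP4 response and GATA genes, 6 had 6 or more (9.84%), 38 had at least 1 and 23 had 0. The sequence to which the start site is the nearest, called the territory below, had a median of 210 kb in this list, beside 60.2 kb over all protein-coding genes. The 6 were SOX2, a pluripotency factor, with 12, TFAP2A, a factor of trophoblast and surface ectoderm, with 11, GATA3 with 10, GATA2 with 7, HES1, a Notch target, with 7 and ISL1, a heart and motor neuron factor, with 6. SOX2 had 0 shared regions under its own name, and GATA3 had 1. In the same list BMP4, ID2, SMAD2 and TBX3 had 5 each, just below the limit. Among those with 0 were GATA4, HAND1, TBXT, a mesoderm factor, GSC, a homeobox factor of the organizer, and NANOG, a pluripotency factor.

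Of 347 genes of axon guidance and cell adhesion, 31 had 6 or more (8.93%) and 168 had at least 1, with a median territory of 128 kb. They were led by NCAM2, the adhesion receptor ADGRL2 and the teneurin TENM2, the last 2 with 14 each. Of 290 signals, receptors and regulators, 9 did (3.10%), among them SPRY2 with 15, the glypican GPC5 with 12, INHBA, an activin subunit, with 9, and the receptors TGFBR2 with 8 and ACVR2A with 7. Of 546 developmental transcription factors, 15 did (2.75%), and these include all 6 named above from the BMP4 response and GATA list. Of 814 channels and transporters 9 did (1.11%), and of 227 matrix and integrin genes 2 (0.881%). The median territories of these last 4 lists were 129, 140, 88.4 and 132 kb in the same order, and the part of territory in the counts of the lists was not tested. In a list of noncoding RNA name patterns, 0 of 30 protein-coding genes had 6 or more. Of the 20 names, 3 matched it, RN7SKP53, SNORA31 and EGLN3-AS1. The patterns missed other noncoding names such as Y_RNA and HYMAI, so 3 is not the number of noncoding names. No other of these lists held any of the 20 names, except that ATP5A1P4 matched the pattern for transporters by its symbol.

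The territory was long for the genes with many regions. Its median was 1389 kb for the 158 genes with 6 or more, 180 kb for the 4900 genes with 1 to 5, and 43.4 kb for the 14949 with 0, so the first was 7.70 times the second. Of the 158, 155 were in the largest 20% of territories and 150 in the largest 10%, of whose genes 7.50% had 6 or more. The median gene length was 125 kb with 6 or more and 58.2 kb with 1 to 5, a ratio of 2.15. The pooled density was 5.08 regions per Mb of territory for the 158, 5.06 for genes with 1 to 5, and 2.96 for all protein-coding genes. The median density of a gene was 5.57 per Mb with 6 or more and 7.71 per Mb with 1 to 5. Over the largest 10% of territories, whatever the count, the pooled density was 2.64 per Mb. Genes enter the groups with 6 or more and with 1 to 5 only by their count, so the values of these groups are descriptions and have no test.

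A long territory did not go with many regions in every gene. Among the 158 genes with the longest territories, 60 had 6 or more regions (37.97%) and 30 had 0. Conversely, a few genes had many regions in a short territory. TMEM106A had 8 in 67.5 kb, 6 of which were in the U2 array. GATA2, a related GATA factor, had 7 in 107 kb, or 65.4 per Mb, with 3 under its own name, and none was under any of the 20 names. PLAGL1 had 6 in 116 kb, or 51.9 per Mb, and DBX1, a homeobox gene, had 13 in 506 kb, or 25.7 per Mb. Which share of the counts goes with length of territory and which with the regions themselves was not tested.

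**Figure D5:**
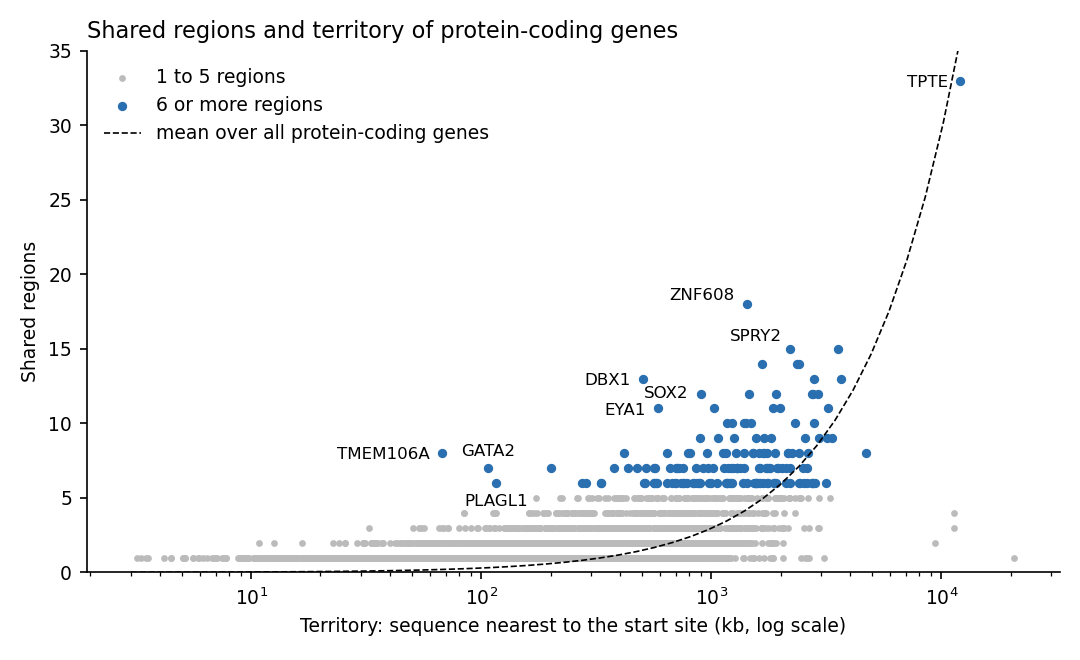
Shared regions of each protein-coding gene by nearest start site (y axis) against its territory in kb (x axis, log scale, assembly gaps included), for genes with at least 1 region. Blue points have 6 or more regions, and the dashed line is the mean of 2.96 regions per Mb over all protein-coding genes. TMEM106A, GATA2, PLAGL1 and DBX1 lie far above the line and TPTE lies near it.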

How the data were processed

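GATA3 ChIP-seq of H1 hESCs was taken from the 2 deposited peak lists, 1 for each ChIP replicate. According to the study's methods and the submitters' processing notes, the authors trimmed single-end reads of 75 bp with cutadapt and aligned them with bowtie against hg38. Duplicate reads (found with Picard), reads with several alignments and reads on the ENCODE blacklist were dropped. Peaks were called with MACS2 at q of 0.05 for each replicate against its own input. The deposited values are positions and gene names, other than counts or signal. The annotation behind the names, the reduction of a peak to 1 position and the base from which positions are counted are not given in the sources used here, so positions are printed as deposited.

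Members and lists were chosen with earlier results of these data known. A position listed under several names was counted once under each, which gave 9189 pairs from 9187 shared positions, of which 2 had no name. Motifs were matched in 200 bp of hg38 around the replicate 1 position, and the central 75 bases were counted over hg38 without alternate sequences on both strands. Gene positions are from GENCODE 44, with the upstream end of each gene as its only start site. Older symbols are from RefSeq, and 59.2% of the 7206 names were matched. Tests were two-sided Fisher's exact tests with Benjamini-Hochberg adjustment over 6 motifs, intervals are 95% Wilson intervals that cover counting error over positions only, and the scripts were checked on simulated data (Python 3.11.15, scipy 1.17.1, statsmodels 0.14.6, pandas 2.3.3, numpy 2.4.6). All 20 names are named. The names with most regions, those highest or lowest in density, and list genes are described in full. Alternatives of distance, naming, threshold, window and replicate were tried. Planned comparisons of length and density over the deposited names were made over protein-coding genes instead. Positions on scaffolds were kept.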

Additional observations from a re-analysis of the deposited data

How the results depend on the processing

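Each replicate list used alone gave 39 to 87 names. That these held all 20 follows from the rule, since shared regions are in both lists, nearly always under the same name. The 20 names were 15 with replicate positions within 50 bp and 23 within 250 bp. They became 6 names with a limit of 8 regions, 10 (6 of the 20) when each region was given to the nearest gene of any kind, and 158 when given to the nearest protein-coding gene, a set that could hold none of the 20. The share of shared regions under the names, 2.92%, became 3.30% within 250 bp, 3.41% with a limit of 5 regions (29 names), 1.97% with a limit of 8, 2.56% on chromosomes alone, 1.67% by the nearest gene of any kind, 13.7% by the nearest protein-coding gene, and 4.12 to 5.17% without either replicate. The alternatives on chromosomes alone, by the nearest gene of any kind and by locus of a name (15 loci of 13 of the names) were added after seeing the data.

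The odds ratio of a GATA site, 0.53, was 0.46 to 0.63 with other windows and 0.50 to 0.80 without either replicate, all past the threshold. By the same exact test it was 0.74 (p = 0.0756) for regions over 10 kb from a protein-coding start site. That setting kept 230 regions under the names and also lost those on scaffolds, which have no such distance. Other alternatives were added after seeing the data. On chromosomes alone, with 234 regions, the odds ratio was 0.78 (exact test, p = 0.123). It was 1.04 without ribosomal DNA names and 1.91 for names at 1 locus. For regions whose central bases occur once it was 1.19, and there AGATAA also turned to 1.16. Of 6 motifs, 1 differed in Fisher's exact tests, 0 over 10 kb from a start site (1 at an unadjusted p under 0.05) and 0 where central bases occur once (0 unadjusted). The change without ribosomal DNA comes from the 47 regions removed.

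Protein-coding genes with 6 or more regions were 158, but 338 to 662 without either replicate and 66 with regions counted in the gene body and 50 kb on each side. The ratio of median gene length, 2.15, was 19.9 by that last measure, which counts over the gene itself. The ratio of median territory was 6.27 to 7.70 throughout. Comparisons of gene length and density over the deposited names were not run, since too few names matched. No paired analysis was possible because the input samples with the same replicate numbers have no peak list. Depth is unknown from positions alone.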
